A study of Mus musculus with 24 samples.

Results

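The *Slc39* genes encode the ZIP transporters, which carry zinc into the cytosol from outside the cell or from its organelles. The 10 genes described here, *Slc39a1*, *Slc39a3*, *Slc39a6*, *Slc39a7*, *Slc39a8*, *Slc39a9*, *Slc39a10*, *Slc39a11*, *Slc39a13* and *Slc39a14*, were taken by name from the 55291 gene symbols of the count table, and all 10 passed the filter on low counts in every comparison. ZIP transporters work against the ZnT transporters (*Slc30* genes), which move zinc out of the cytosol, and against the metallothioneins (*Mt1*, *Mt2*), which bind it. When zinc is plentiful the transcription factor MTF1 binds metal response elements near the metallothionein genes and *Slc30a1* and raises their transcription. Muscle holds much of the body's zinc, and myoblasts need it to proliferate and differentiate.

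RNA was sequenced from C2C12 cells, an established line of mouse myoblasts, which the sample labels call primary myoblasts. All cells carried a lentiviral shRNA and were kept as stable populations under puromycin: a scramble control (scr), or a knockdown (KD) of *Baf180* (gene symbol *Pbrm1*, of the PBAF form of the SWI/SNF chromatin remodeler), of *Baf250a* (*Arid1a*, of cBAF; the labels write BAF250) or of *Brd9* (of ncBAF). Each of the 4 cell lines was grown without added metal (NT), or for 48 h in medium with CuSO4 at 100 µM or ZnSO4 at 50 µM, in 2 independent replicates, giving 12 conditions and 24 libraries. Cu and Zn were given at different doses, so their effects are set side by side and not compared.

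Total counts ran from 12719173 to 75179394 in 23 libraries and came to 495778 in *Baf250a* KD Zn replicate 2. In that library the 10 genes had between 3 (*Slc39a8*) and 74 (*Slc39a13*) counts. Each targeted gene was lower in all 6 libraries of its KD than in all 6 scr libraries: *Pbrm1* at 42.2 to 75.7 CPM against 99.9 to 227, *Arid1a* at 92.0 to 144 against 266 to 308, and *Brd9* at 13.8 to 17.9 against 27.2 to 32.4. CPM are counts scaled to the library size by TMM, except for the marker levels, which are scaled by total counts alone. The summed level of 6 myoblast markers was 2285 to 2988 CPM in scr cells, 1534 to 1699 in *Baf180* KD, 1099 to 1299 in *Baf250a* KD and 1575 to 1908 in *Brd9* KD cells, and leukocyte, endothelial and epithelial markers summed to at most 10.1, 5.77 and 0.855 CPM in any library. Adipocyte markers summed to 13.9 to 24.4 CPM.

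Per length of exon, *Slc39a1* and *Slc39a6*, zinc importers of the plasma membrane, were the most abundant of the 10, with median levels of 50.6 and 45.7 RPKM over the 24 libraries. *Slc39a13*, which carries zinc from the Golgi and its vesicles into the cytosol and matters for connective tissue, followed at 19.3 RPKM. *Slc39a7*, which releases zinc from the endoplasmic reticulum, had a median of 12.7 RPKM, and *Slc39a14*, which also carries iron and manganese, one of 11.4 RPKM. Then came *Slc39a3*, another plasma membrane importer, at 7.63, *Slc39a9*, of the Golgi and cell surface, at 6.96, *Slc39a10*, a plasma membrane relative of *Slc39a6*, at 6.09, and *Slc39a11*, found in the Golgi and nucleus, at 4.02 RPKM. *Slc39a8*, a carrier of zinc, manganese and cadmium, was the lowest at 0.824 RPKM. Neighbours in this order overlapped in their ranges over the 24 libraries, apart from *Slc39a11* (2.05 to 5.68 RPKM) and *Slc39a8* (0.597 to 1.15 RPKM). The summed level of the 10 genes was 134 to 173 RPKM in the 8 libraries with Zn and 145 to 184 RPKM in the 16 others. *Slc39a2*, *Slc39a4*, *Slc39a5* and *Slc39a12*, the other family members looked up in the table, reached at most 21, 4, 4 and 17 counts in any library.

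**Figure D1:**
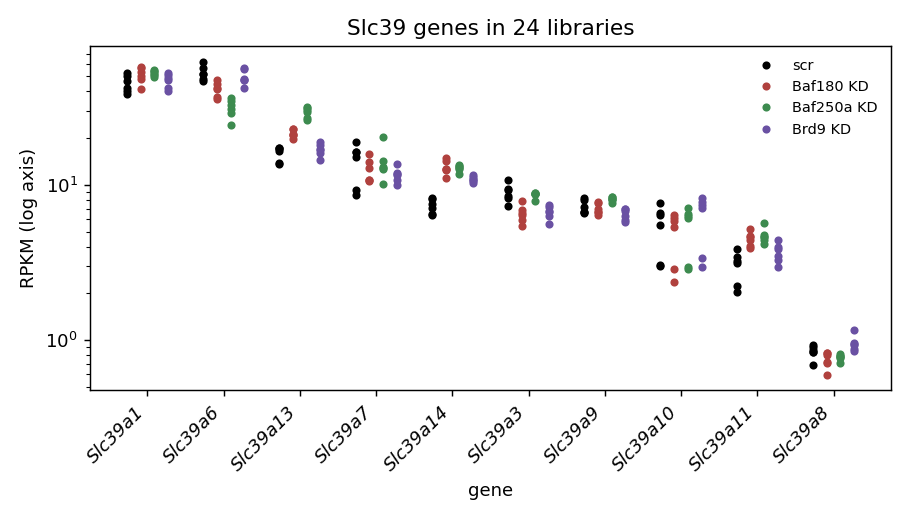
Level of the 10 *Slc39* genes in RPKM (log axis), with genes ordered by their median over 24 libraries. Each point is 1 library and colors mark the 4 cell lines, with 6 libraries each. *Slc39a1* and *Slc39a6* lie highest, *Slc39a8* lies apart at 0.597 to 1.15 RPKM, and *Slc39a10* splits into a lower and an upper set of libraries.

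*Slc39a10* (chr1:46807544-46892852, minus strand, GRCm38) was the member that fell with Zn in every cell line. In scr cells it was at 38.7 and 33.5 CPM without metal, 46.5 and 40.2 CPM with Cu and 18.6 and 18.3 CPM with Zn. In *Baf180* KD cells it was at 38.8 and 37.1 CPM without metal, 32.4 and 35.6 CPM with Cu and 17.6 and 14.4 CPM with Zn. In *Baf250a* KD cells it was at 38.2 and 37.0 CPM without metal, 43.0 and 39.6 CPM with Cu and 18.1 and 17.5 CPM with Zn. The 17.5 CPM in the shallow library rested on 9 counts, whose exact 95% Poisson interval, for counting error only, is 4.12 to 17.1 counts. In *Brd9* KD cells it was at 47.5 and 45.2 CPM without metal, 50.1 and 43.1 CPM with Cu and 20.6 and 18.0 CPM with Zn. The 8 libraries with Zn, at 14.4 to 20.6 CPM, did not overlap the 16 others, at 32.4 to 50.1 CPM.

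**Figure D2:**
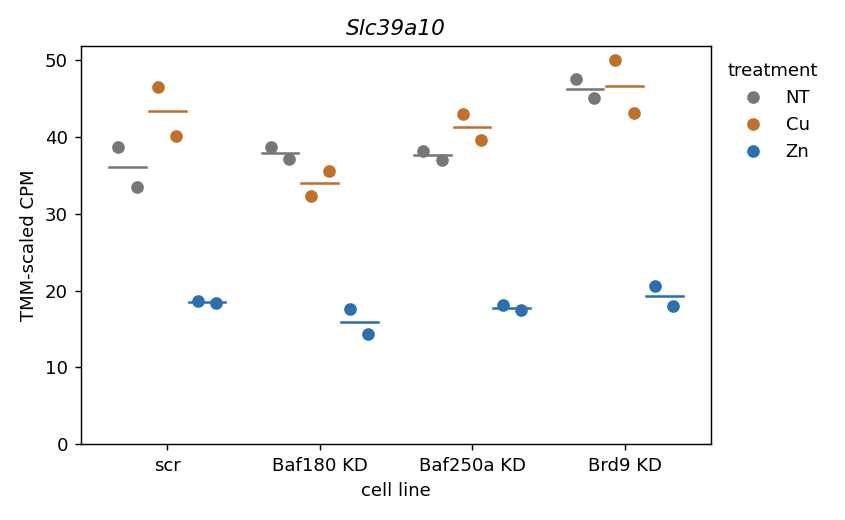
Level of *Slc39a10* in TMM-scaled CPM in each of the 24 libraries, by cell line and treatment (NT, no added metal). Points are libraries and lines are the means of 2. All 8 points for Zn lie at 14.4 to 20.6 CPM, below all points for NT and Cu.

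By edgeR's quasi-likelihood test with Benjamini-Hochberg adjustment, called under 0.05, the log2 fold change of *Slc39a10* with Zn against NT was -0.88 in scr (SE 0.12, adjusted p = 0.0275), -1.28 in *Baf180* KD (SE 0.12, adjusted p = 0.00474), -1.06 in *Baf250a* KD (SE 0.14, adjusted p = 2.39e-05) and -1.27 in *Brd9* KD cells (SE 0.10, adjusted p = 0.0036). Averaged over the 4 cell lines in a fit of all 24 libraries it was -1.14 (SE 0.06, adjusted p = 3.81e-10), where 0.284% of all genes tested were called, and it was the only one of the 10 members called there. The fall was not called different from that in scr cells in any KD: the difference of log2 fold changes was -0.29 for *Baf180* KD (SE 0.16, adjusted p = 0.19), -0.09 for *Baf250a* KD (SE 0.18, adjusted p = 0.739) and -0.29 for *Brd9* KD (SE 0.16, adjusted p = 0.234). Cu gave log2 fold changes of 0.28 in scr, -0.19 in *Baf180* KD, 0.14 in *Baf250a* KD and -0.05 in *Brd9* KD cells, none called. The difference of Cu responses to scr was -0.42 in *Baf180* KD (SE 0.16, adjusted p = 0.0818), not called by edgeR but called by DESeq2. In *Baf250a* and *Brd9* KD it was -0.12 and -0.25 (adjusted p = 0.833 and 0.404). In scr cells the Zn call was lost, at a like size, without NT replicate 2 (-1.01, adjusted p = 0.137), Zn replicate 1 (-0.88, adjusted p = 0.128) or Zn replicate 2 (-0.87, adjusted p = 0.192), and in *Baf250a* KD cells without Zn replicate 1 (-1.08, adjusted p = 0.18), which leaves the shallow library alone. The call averaged over the cell lines held without each library in turn (-1.17 to -1.10).

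A level set apart by Zn in every cell line was rare: in each of the 4, both Zn libraries lay on the same side of the other 4 for 24 of 16524 genes (0.145%), *Slc39a10*, *Mt1* and *Mt2* among them. *Slc39a10* made up 1.57% to 2.25% of the summed RPKM of the 10 genes with Zn and 2.88% to 4.90% otherwise. Over the 24 libraries, with the mean of each cell line taken off the log2 CPM, the genes whose pattern was most like that of *Slc39a10* were *Dmpk*, the kinase gene of myotonic dystrophy (Pearson's r = 0.91), *Col12a1*, a collagen (0.86), *Myo10*, a myosin of filopodia (0.85), *Fat1*, an atypical cadherin (0.84), and *Siglecg*, a sialic acid-binding receptor (0.83), of 10411 genes with a mean of at least 5 CPM. These values are across libraries that also share depth and treatment, and describe likeness only. Without the shallow library the same 5 ranked 1, 3, 4, 6 and 7. The size of the Zn response set *Slc39a10* apart from them, at -1.14 against -0.17 to -0.37 on the log2 scale. The most opposite patterns, looked up afterwards, were those of *Mt2* (-0.87), *Mt1* (-0.86) and *Slc30a1* (-0.85).

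The letters of the metal response element core were looked for near the start sites, since the gene that fell and the metallothionein genes moved in opposite directions. The core was searched as TGCACNC or TGCGCNC on both strands in RefSeq windows of GRCm38.p6 from 250 bases before to 50 after a start. Windows were given for 8 of the 10 members, not for *Slc39a6* and *Slc39a14*. A match stood in 25.7% of all 32851 windows. The *Mt1*, *Mt2* and *Slc30a1* windows held 3, 4 and 2 matches, and those of *Slc39a1* and *Slc39a7* held none. The windows given for *Slc39a10* (chr1:46925727-46926026 and chr1:46853569-46853868) and *Slc39a9* (chr12:80643965-80644264) also held none, but they do not cover the 5′ end of either gene in GENCODE (46892852 and 80643883), which was not searched, so no count is given for the start of *Slc39a10* as annotated there.

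Among the members, 5 of 11 windows in 4 genes held a match. These sites are shown in 30 bases each, on the strand of the gene, with the match in capitals, to set members with and without the core beside their Zn values. The *Slc39a3* site lies at chr10:81037441-81037470, the *Slc39a8* site at chr3:135825627-135825656, the *Slc39a11* sites at chr11:113650089-113650118 and chr11:113565937-113565966, and the *Slc39a13* site at chr2:91070280-91070309. *Slc39a8* lies on the plus strand and the others on the minus strand. The *Slc39a8* site is from its second window (chr3:135825407-135825706). Its first window (chr3:135825029-135825328), which covers the 5′ end of the gene in GENCODE (135825279), held no match.
Slc39a3: catttggtagcTGCACTCatgtttagaaag
Slc39a8: ttatctctaaaGGGTGCAgggcctgatctc
Slc39a11, first start: aaagggaaggaGAGCGCAgcgaacccacgg
Slc39a11, second start: tttcctggggtGTGTGCActgccctaggcc
Slc39a13: tgtgacgtggcTGCACGCcgggggtggctc
Of these 4 genes, *Slc39a11* fell with Zn in scr cells (log2 fold change -0.63), and the others were not called for Zn in any cell line. Without a match, *Slc39a7* also fell with Zn in scr cells (-0.89) and rose in *Baf250a* KD (0.68). *Slc39a1*, also without a match, was not called for Zn in any cell line. A link between matches and Zn values was not tested. A match describes letters and is not a binding site, and a window without a match says nothing of MTF1.

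*Slc39a7* and *Slc39a11*, which serve the endoplasmic reticulum and the Golgi, fell with Zn in scr cells and not in the KD lines. With *Slc39a10* they made 3 members called in scr cells, all lower, where 17.6% of genes tested were called. *Slc39a7* (chr17:34028269-34031682) was at 41.7 and 48.8 CPM without metal and 23.97 and 22.1 CPM with Zn in scr cells, which gave a log2 fold change of -0.89 (SE 0.11, adjusted p = 0.0275). *Slc39a11* (chr11:113244853-113650079) was at 10.8 and 12.9 CPM without metal and 6.89 and 7.53 CPM with Zn, a log2 fold change of -0.63 (SE 0.14, adjusted p = 0.0303). The Zn and NT libraries of scr cells, 2 of each, did not overlap for either gene, and the share of all genes without overlap there was not counted. Both calls were lost without scr NT replicate 2, Zn replicate 1 or Zn replicate 2, with adjusted p of 0.177, 0.128 and 0.192 for *Slc39a7* and 0.198, 0.184 and 0.2 for *Slc39a11*.

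In the KD lines *Slc39a7* was at 27.7 and 27.8 CPM without metal and 33.1 and 36.3 CPM with Zn in *Baf180* KD cells, and at 27.7 and 30.2 against 29.9 and 25.9 CPM in *Brd9* KD cells. In *Baf250a* KD cells it was at 36.5 and 26.3 CPM without metal and 52.7 and 33.1 CPM with Zn, the last from 17 counts. That rise was called (log2 fold change 0.68, SE 0.15, adjusted p = 0.00275), beside *Slc39a10* the other member of 2 called there, where 15.9% of genes were called. It rested on few libraries: it was 0.09 without Zn replicate 1 (adjusted p = 0.921), 0.45 without NT replicate 2 (adjusted p = 0.107) and 0.56 by DESeq2 (adjusted p = 0.31). *Slc39a11* was at 13.1 and 14.7 against 13.6 and 15.8 CPM in *Baf180* KD, 16.0 and 13.9 against 19.1 and 15.6 CPM in *Baf250a* KD and 10.97 and 9.92 against 14.7 and 11.7 CPM in *Brd9* KD cells, without metal and with Zn, and was called in none.

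The difference between the Zn response of a KD and that of scr was itself called for both genes in all 3 KDs. For *Slc39a7* it was 1.30 on the log2 scale in *Baf180* KD (SE 0.23, adjusted p = 0.00112), 1.63 in *Baf250a* KD (SE 0.25, adjusted p = 0.000227) and 0.93 in *Brd9* KD (SE 0.24, adjusted p = 0.0279). For *Slc39a11* it was 0.80 (SE 0.19, adjusted p = 0.0052), 1.04 (SE 0.21, adjusted p = 0.00123) and 1.06 (SE 0.20, adjusted p = 0.0232). All 3 differences use the same scr libraries. *Slc39a1* (0.45, SE 0.16, adjusted p = 0.0428) and *Slc39a14* (0.36, SE 0.12, adjusted p = 0.0278) were also called in *Baf180* KD, so that 4, 2 and 2 members were called in *Baf180*, *Baf250a* and *Brd9* KD, where 28.7%, 30.5% and 11.1% of genes were.

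GC content moved with these results. Across genes, which do not count as replicates, Zn log2 fold changes fell with GC content in scr cells (Spearman's rho -0.675), and the differences to scr rose with it (0.622, 0.554 and 0.589 for *Baf180*, *Baf250a* and *Brd9* KD). Transcripts of *Slc39a7* and *Slc39a11* are 57.5% and 53.9% GC, and those of *Slc39a10* are 44.5%. After a correction for GC content and length, *Slc39a7* in scr cells with Zn was at -0.53 (adjusted p = 0.0802), *Slc39a11* at -0.32 (adjusted p = 0.199) and *Slc39a10* at -1.13 (adjusted p = 0.00718). *Slc39a10* also kept its call in *Baf180* KD (-1.18), *Baf250a* KD (-0.998) and *Brd9* KD (-1.26). Of the differences to scr, that of *Slc39a7* stayed called after it at a smaller size in *Baf180* KD (0.82, adjusted p = 0.0293) and *Baf250a* KD (1.12, adjusted p = 0.00341), and the other 6 did not. *Slc39a7* in *Brd9* KD was then at 0.54, *Slc39a11* at 0.39, 0.57 and 0.73 in *Baf180*, *Baf250a* and *Brd9* KD, and *Slc39a1* and *Slc39a14* in *Baf180* KD at 0.07 and 0.13. *Slc39a7* shares its strand with *Gm20427*, an overlapping gene with at most 35 counts in any library, so reads in the shared part may have been left uncounted.

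Several of the differences also depended on a single library. That of *Slc39a7* in *Baf250a* KD was 1.04 without Zn replicate 1 (adjusted p = 0.241), and that of *Slc39a11* 0.76 (adjusted p = 0.499). In *Brd9* KD both were lost without scr NT replicate 2, either scr Zn replicate, *Brd9* KD NT replicate 2 or *Brd9* KD Zn replicate 1 (adjusted p of 0.0642 to 0.216 for *Slc39a7* and 0.0582 to 0.212 for *Slc39a11*). *Slc39a11* in *Baf180* KD was lost without scr NT replicate 2 (0.65, adjusted p = 0.0578). *Slc39a1* and *Slc39a14* in *Baf180* KD were each lost without scr NT replicate 2 (0.36 and 0.24), *Baf180* KD NT replicate 2 (0.31 and 0.27), *Baf180* KD Zn replicate 1 (0.38 and 0.35) or either scr Zn replicate, and *Slc39a14* also without *Baf180* KD Zn replicate 2 (0.36). The *Slc39a1* call was also lost by DESeq2 (adjusted p = 0.0547), with RLE size factors (adjusted p = 0.0503), with a filter of at least 1 count (adjusted p = 0.108) and in a fit of the 12 libraries of both cell lines (adjusted p = 0.0998), and the *Slc39a14* call with that filter (adjusted p = 0.326) and in that fit (adjusted p = 0.124). The difference of *Slc39a7* in *Baf180* KD was called without each library in turn, at 1.18 to 1.41.

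**Figure D3:**
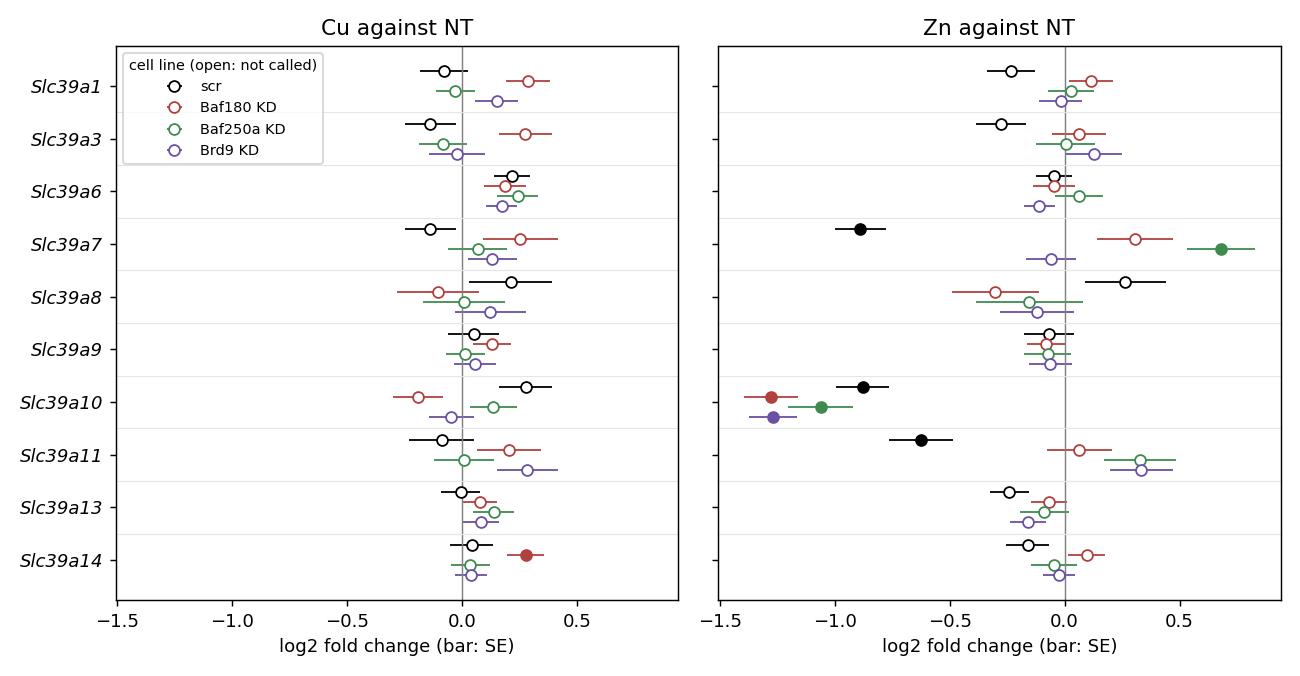
Log2 fold change of the 10 *Slc39* genes with Cu (left) and Zn (right) against NT in each cell line, with the SE of the edgeR fit as bars. Filled points were called at an adjusted p under 0.05. *Slc39a10* is filled in all 4 cell lines for Zn, at -0.88 to -1.28, and *Slc39a7* lies at -0.89 in scr and 0.68 in *Baf250a* KD.

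Few members were called for Cu. None was called in scr, *Baf250a* KD or *Brd9* KD cells by edgeR or by DESeq2, where edgeR called 0.0333%, 1.27% and 0.274% of all genes. In edgeR 2, 1 and 1 members had an unadjusted p under 0.05. So did 1559 of 15002, 1530 of 14706 and 2426 of 14978 genes tested. In *Baf180* KD cells *Slc39a14* rose, from 131 and 116 CPM without metal to 149 and 157 CPM (log2 fold change 0.28, SE 0.08, adjusted p = 0.0452), where 13.8% of genes were called. That call was lost without any of the 4 libraries compared (adjusted p of 0.0753 without NT replicate 1 to 0.32 without NT replicate 2; 0.137 and 0.124 without Cu replicates 1 and 2), and after the GC correction (0.19, adjusted p = 0.16).

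*Slc39a6*, the zinc importer also known as LIV-1, rose with Cu on average over the 4 cell lines. The mean of the 4 log2 fold changes was 0.22 (SE 0.05, adjusted p = 0.0086), where 7.86% of genes were called, and no other member was. Its levels without metal and with Cu were 210 and 211 against 254 and 231 CPM in scr, 170 and 151 against 192 and 182 CPM in *Baf180* KD, 126 and 118 against 148 and 141 CPM in *Baf250a* KD, and 197 and 193 against 227 and 230 CPM in *Brd9* KD cells. Both Cu libraries lay above both NT libraries in each cell line, with log2 fold changes of 0.17 to 0.24 that were not called within a line. The share of all genes set apart in this way by Cu was not counted. The mean stayed called without each library in turn (0.20 to 0.25). The difference of Cu responses between a KD and scr was called for no member by edgeR in any KD, where 12.8%, 0.0121% and 0.0363% of genes were called for *Baf180*, *Baf250a* and *Brd9* KD. By unadjusted p under 0.05 in edgeR there were 4, 0 and 1 members, beside 4876, 1274 and 2759 of the 16524 genes tested. DESeq2 called 1, 0 and 0 members.

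Without added metal, the KDs differed from scr in 6 of the 10 members, in both directions. *Slc39a14* was higher and *Slc39a7* lower in all 3 KDs. *Slc39a13* was higher in *Baf180* and *Baf250a* KD, *Slc39a6* lower in *Baf180* and *Baf250a* KD, *Slc39a3* lower in *Baf180* and *Brd9* KD, and *Slc39a10* higher in *Brd9* KD. In all, 5 members were called in *Baf180* KD, 4 in *Baf250a* KD and 4 in *Brd9* KD, where 41%, 57.8% and 29.2% of all genes tested were called, so the members' shares lay near those of all genes. The median log2 fold change of the members was 0.00, 0.09 and -0.11, against 0.03, 0.00 and 0.01 over all genes. Across genes, these log2 fold changes fell with GC content (Spearman's rho -0.311, -0.279 and -0.423 for *Baf180*, *Baf250a* and *Brd9* KD). Transcripts of *Slc39a3*, *Slc39a7* and *Slc39a13* are 59.4%, 57.5% and 59.7% GC. The GC correction ended the call of *Slc39a10* in *Brd9* KD, and the other calls named here stayed. Where 2 untreated KD libraries are said below to lie on one side of 2 scr libraries, the share of all genes that do so was not counted. These comparisons share the same 2 scr libraries, and in bulk RNA fewer cells of a type and less RNA per cell cannot be told apart. The 6 myoblast markers moved in both directions in the same comparisons, with 2 higher and 3 lower in *Baf180* KD, 2 and 4 in *Baf250a* KD and 1 and 4 in *Brd9* KD. Their lower sum is mostly *Des* (median 1165 CPM over the 24 libraries, scaled by total counts alone). Their part in these values was not tested.

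*Slc39a14* (chr14:70303469-70351425) was at 75.1 and 86.8 CPM in scr NT libraries, 131 and 116 in *Baf180* KD, 138 and 136 in *Baf250a* KD and 114 and 111 CPM in *Brd9* KD. All KD libraries lay above scr, with log2 fold changes of 0.62 (SE 0.11, adjusted p = 0.00115), 0.76 (SE 0.11, adjusted p = 7.52e-05) and 0.49 (SE 0.10, adjusted p = 0.0119). The *Brd9* KD call was lost without *Brd9* KD NT replicate 1 (0.47, adjusted p = 0.0791) or 2 (0.48, adjusted p = 0.0986).

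*Slc39a13* (chr2:91061791-91070417) was at 84.1 and 83.1 CPM in scr, 103 and 102 CPM in *Baf180* KD, 147 and 132 CPM in *Baf250a* KD, and 81.1 and 83.2 CPM in *Brd9* KD. It was higher by 0.31 (SE 0.10, adjusted p = 0.0292) in *Baf180* KD and by 0.74 (SE 0.11, adjusted p = 7.1e-05) in *Baf250a* KD on the log2 scale, and was not called in *Brd9* KD (-0.01, adjusted p = 0.962). The *Baf180* KD call was lost by DESeq2 (adjusted p = 0.0602), with a filter of at least 1 count (adjusted p = 0.0672) and without *Baf180* KD NT replicate 1 (adjusted p = 0.201) or 2 (adjusted p = 0.237).

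*Slc39a7* was at 27.7 and 27.8 CPM in *Baf180* KD, 36.5 and 26.3 CPM in *Baf250a* KD and 27.7 and 30.2 CPM in *Brd9* KD, all below the 41.7 and 48.8 CPM in scr. Its log2 fold changes were -0.69 (SE 0.12, adjusted p = 0.00107), -0.53 (SE 0.15, adjusted p = 0.00909) and -0.63 (SE 0.13, adjusted p = 0.00959). The *Baf250a* KD call was lost without *Baf250a* KD NT replicate 2 (-0.31, adjusted p = 0.199) and the *Brd9* KD call without *Brd9* KD NT replicate 1 (-0.56, adjusted p = 0.0695).

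*Slc39a6* was at 210 and 211 CPM in scr, 170 and 151 CPM in *Baf180* KD (-0.38, SE 0.10, adjusted p = 0.0122), and 126 and 118 CPM in *Baf250a* KD (-0.79, SE 0.10, adjusted p = 2.67e-05). In *Brd9* KD it was at 197 and 193 CPM and was not called (-0.09, adjusted p = 0.448). *Slc39a3* (chr10:81028538-81037426) was at 37.0 and 43.2 CPM in scr, 25.7 and 21.9 CPM in *Baf180* KD (-0.74, SE 0.13, adjusted p = 0.001), and 29.1 and 22.3 CPM in *Brd9* KD (-0.62, SE 0.14, adjusted p = 0.0161). The KD libraries of both genes lay below scr where called. The *Slc39a6* call in *Baf180* KD was lost without *Baf180* KD NT replicate 2 (-0.34, adjusted p = 0.139), and the *Slc39a3* call in *Brd9* KD without *Brd9* KD NT replicate 2 (-0.49, adjusted p = 0.142). *Slc39a10* was higher in untreated *Brd9* KD cells by 0.38 (SE 0.12, adjusted p = 0.0444), a call lost by DESeq2 (adjusted p = 0.0929), after the GC correction (0.17, adjusted p = 0.181) and without *Brd9* KD NT replicate 1 (adjusted p = 0.222), replicate 2 (adjusted p = 0.23) or scr NT replicate 2 (adjusted p = 0.206).

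**Figure D4:**
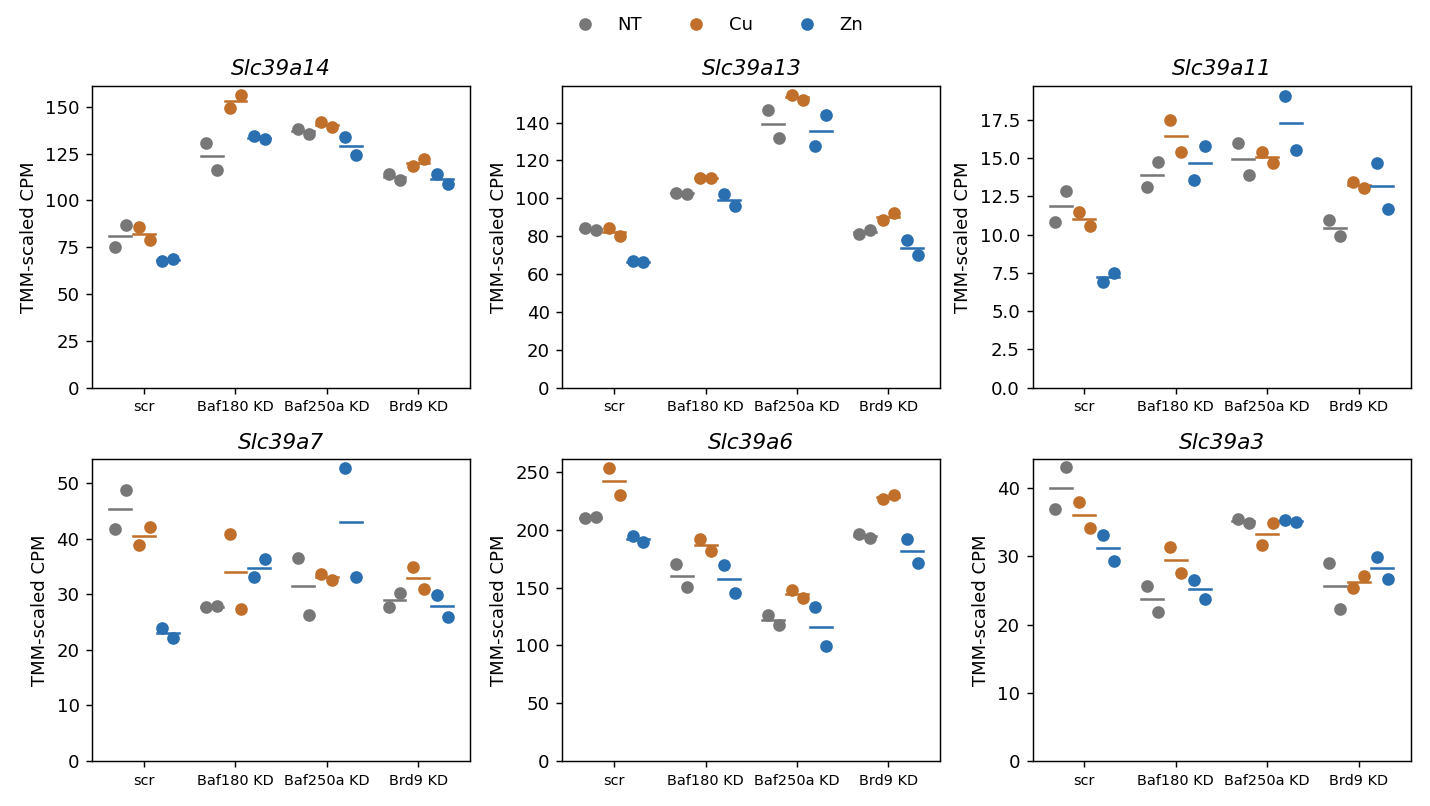
Levels of 6 *Slc39* genes in TMM-scaled CPM in each library, by cell line and treatment, with the mean of 2 libraries as a line. All KD points of *Slc39a14* lie above the scr points, and the scr points of *Slc39a7* and *Slc39a11* lie lower with Zn than with NT or Cu.

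Over all treatments, the 6 libraries of a KD and the 6 of scr were set apart without overlap for 3 members in *Baf180* KD, 4 in *Baf250a* KD and 1 in *Brd9* KD, against 23.4%, 27.4% and 15.7% of all genes. *Slc39a14* lay above scr in all 3 KDs: scr ranged from 67.8 to 86.8 CPM with a median of 77.0, and the KDs from 116 to 157, 124 to 142 and 109 to 122 CPM with medians of 134, 137 and 114. *Slc39a11* and *Slc39a13* lay above scr in *Baf180* and *Baf250a* KD. For *Slc39a11* scr ranged from 6.89 to 12.9 CPM, *Baf180* KD from 13.1 to 17.5 and *Baf250a* KD from 13.9 to 19.1 CPM, although its untreated comparisons were not called. *Slc39a6* lay below scr in *Baf250a* KD, at 99.2 to 148 CPM against 190 to 254 CPM.

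*Slc39a1*, *Slc39a8* and *Slc39a9* were called in no metal response and in no untreated KD. *Slc39a9* moved least with metal, with log2 fold changes of 0.01 to 0.13 for Cu and -0.08 to -0.06 for Zn in the 4 cell lines. *Slc39a1* ranged from -0.08 to 0.29 for Cu and from -0.23 to 0.11 for Zn, and *Slc39a8*, with the fewest counts, from -0.10 to 0.21 and from -0.30 to 0.26.

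*Mt2* and *Slc30a1* rose with Zn in all 4 cell lines, in which *Slc39a10* fell, while most other zinc exporters and buffers tested were not called in the KD lines. A list of 16 such genes held 9 that were tested, and 5 rose with Zn in scr cells and none fell: *Mt2* (log2 fold change 3.40, SE 0.11), *Mt1* (2.40, SE 0.16), *Slc30a1*, the exporter of the plasma membrane (1.44, SE 0.11), *Slc30a4* (0.99, SE 0.18) and *Slc30a7* (0.38, SE 0.09). With Zn in scr cells 17.6% of all genes tested were called, and log2 fold changes fell with GC content across genes (Spearman's rho -0.675). The values of these list genes are without the GC correction, and were not followed without each library. In *Baf180* KD cells *Mt2* (1.71) and *Slc30a1* (1.02) rose, and *Mt1* was at 1.28 (adjusted p = 0.0646). These 2 genes and *Slc39a10* were the 3 genes of the whole table called for Zn there (0.0197% of those tested). In *Baf250a* KD cells *Mt2* (1.10), *Mt1* (1.03) and *Slc30a1* (0.77) rose and *Slc30a4* fell by 0.40, where 15.9% of genes were called. In *Brd9* KD cells *Mt2* (2.12), *Mt1* (1.56) and *Slc30a1* (0.99) rose, and with *Slc39a10* they were 4 of the 5 genes called (0.0334%). The median of the 9 was 0.38 in scr, 0.03 in *Baf180* KD, 0.17 in *Baf250a* KD and 0.03 in *Brd9* KD, with all genes at -0.01, -0.01, 0.00 and 0.00.

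The Zn response of *Mt2* differed from that of scr by -1.58, -2.18 and -1.19 in *Baf180*, *Baf250a* and *Brd9* KD (adjusted p = 0.000181, 1.65e-06 and 0.0184), where no difference was called for *Slc39a10*. *Mt2* was not alone: 4, 5 and 2 of the 9 genes were called in these differences, all lower. Of all genes tested, 28.7%, 30.5% and 11.1% were called there. *Mt1* and *Mt2* were already higher in the untreated KDs than in untreated scr cells, by 2.07 and 2.42 in *Baf180* KD, 2.15 and 2.46 in *Baf250a* KD and 1.42 and 1.70 in *Brd9* KD on the log2 scale, all called. In those comparisons 4, 5 and 5 of the 9 genes were higher and 0, 2 and 0 lower, beside 41%, 57.8% and 29.2% of all genes called in either direction. *Slc30a1* (0.57, 1.30 and 0.52) and *Slc30a7* (0.38, 0.72 and 0.39) were among the higher in each, as was *Slc30a4* in *Brd9* KD (0.69). *Mtf1*, the gene of MTF1, named after its value was seen, was lower in *Baf250a* KD (-0.56).

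Of 12 genes of iron and manganese handling, all tested, 3 rose with Cu averaged over the 4 cell lines and none fell: *Hmox1*, heme oxygenase (0.78, SE 0.07), and the ferritin chains *Ftl1* (0.44, SE 0.07) and *Fth1* (0.41, SE 0.07). In that average 7.86% of all genes tested were called. In *Baf180* KD cells these 3 rose with Cu (0.84, 0.68 and 0.47), while *Tfrc* (-0.29) and *Ireb2* (-0.50) fell, where 13.8% of genes were called. Across genes, log2 fold changes in that comparison rose with GC content (Spearman's rho 0.50). The values of these 12 genes are without the GC correction, and were not followed without each library. None of the 12 was called with Zn averaged over the lines in either direction, where 0.284% of genes were called. Within lines, *Ireb2* (0.89) and *Slc40a1* (0.48) rose with Zn in scr cells, where 17.6% of genes were called. In *Baf250a* KD 1 of the 12 fell, where 15.9% were called, and none was called with Zn in *Baf180* or *Brd9* KD. In the untreated KDs, where *Slc39a14* was higher, 1, 5 and 0 of the 12 were higher and 2, 1 and 1 lower in *Baf180*, *Baf250a* and *Brd9* KD, beside 41%, 57.8% and 29.2% of all genes called in either direction. *Hmox1* was higher in *Baf180* (0.63) and *Baf250a* KD (1.36), and *Slc40a1*, the iron exporter, was higher in *Baf250a* (0.96) and lower in *Brd9* KD (-1.36). *Slc11a2*, an importer of iron, and *Aco1*, an iron sensor, were lower in *Baf180* KD (-0.34 for each), and *Ireb2*, another iron sensor (0.65), and *Steap3*, a reductase of endosomal iron (0.49), were higher in *Baf250a* KD.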

How the data were processed

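RNA of 24 libraries (12 conditions, 2 replicates) was analysed from the count table. The authors aligned paired reads to mm10 with STAR, keeping unique alignments, and counted pairs by strand with featureCounts. The deposited values are whole-number counts, not normalized. The authors' 14 tables of DESeq2 comparisons, which hold their fold changes and p-values, were not used. Samples were grouped by title, since a treatment tag contradicts the titles.

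Counts were tested in R 4.3.3 with edgeR 4.0.16 (glmQLFit, glmQLFTest, TMM, filterByExpr at defaults), with Benjamini-Hochberg adjusted p under 0.05 over all genes tested. Metal responses used the 6 libraries of a cell line, untreated comparisons 4, and differences of responses and means over cell lines all 24. Of 16524 genes passing the filter over 24 libraries, all 10 members passed. RPKM divide CPM by the exon length in GENCODE M21 (GRCm38), whose symbols matched 53292 of 55291, and log2 CPM used a prior count of 2. The scripts were tested on simulated data.

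Alternatives were DESeq2 1.42.0, RLE size factors, a filter of at least 1 count, other sets of libraries, a block for the replicate number (for untreated comparisons added after seeing the data), a correction for GC content and length (spline with 5 degrees of freedom), and leaving out each library. Without a library its condition has 1 replicate, assumed to vary like the others.

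The members and lists were chosen with earlier results of these data known. All members are named, as are, in the comparisons described, the genes of each list that were called (the 4 with the smallest adjusted p where over 5) and the 5 genes most like *Slc39a10*. Exceptions are the differences of Zn responses, where only *Mt2* is named, and the iron and manganese list with Zn in *Baf250a* KD. Precision follows the total counts, 495778 to 75179394 (median 22158430).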

Additional observations from a re-analysis of the deposited data

Results flagged for a closer look

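The Zn responses of 4 members differed between a KD and scr by a test of the difference itself (edgeR, all 24 libraries). On the log2 scale the difference was 1.30 in *Baf180* KD, 1.63 in *Baf250a* KD and 0.93 in *Brd9* KD for *Slc39a7*, and 0.80, 1.04 and 1.06 for *Slc39a11*. In *Baf180* KD it was also 0.45 for *Slc39a1* and 0.36 for *Slc39a14*. All 8 differences are positive and rest on the same 4 scr libraries. With GC content and length corrected for, 2 of the 8 stayed called, those of *Slc39a7* in *Baf180* KD (0.82) and *Baf250a* KD (1.12).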

How the results depend on the processing

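No call changed direction under any alternative. Of 31 calls of single members, 18 held under every alternative and 11 held both there and without each library, among them *Slc39a10* with Zn in *Baf180* and *Brd9* KD and averaged over cell lines, *Slc39a6* with Cu averaged over cell lines, *Slc39a14* in untreated *Baf180* and *Baf250a* KD and the *Slc39a7* difference in *Baf180* KD. The number of members called with DESeq2 was 2 for Cu in *Baf180* KD, 1 for Zn in *Baf250a* KD, 1 for the Cu difference of *Baf180* KD to scr (*Slc39a10*) and 2 for Zn averaged over cell lines, which added *Slc39a13*. RLE size factors gave 1 for that Cu difference. A filter of at least 1 count gave 2 for Cu in *Baf180* KD and 2 for the Zn difference of *Baf180* KD to scr, as did a fit of the 12 libraries of the 2 cell lines for the latter (2). A fit of all 24 libraries gave 7 for Zn in scr. With the GC and length correction the numbers were 1 for Zn in scr, 0 for Cu in *Baf180* KD, 7 for untreated *Baf250a* KD, and 1, 1 and 0 for the Zn differences of *Baf180*, *Baf250a* and *Brd9* KD to scr. Adding the replicate block to that correction gave the same numbers: 1, 0, 7, 1, 1 and 0. The causes were not tested. The shares of all genes called under these alternatives are not given here, so these numbers do not set the members apart from other genes.

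The replicate numbers are not said to mark a shared batch, and deviations of libraries with the same number correlated at -0.18 to 0.28 within cell lines. With the replicate number as a block, 0 members were called for Zn in scr (*Slc39a10* at an adjusted p of 0.0541) and 2 for Cu in *Baf180* KD. The block also ended the calls of *Slc39a13* in untreated *Baf180* KD (adjusted p = 0.113) and *Slc39a10* in untreated *Brd9* KD (adjusted p = 0.104), while the other counts of members stayed within 1.5 times.

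Without each library in turn, the number called ran from 0 to 3 for Zn in scr, 0 to 1 for Cu and 1 to 1 for Zn in *Baf180* KD, 0 to 2 for Zn in *Baf250a* KD, 3 to 6, 3 to 6 and 1 to 5 for untreated *Baf180*, *Baf250a* and *Brd9* KD, 0 to 3 for the Cu difference of *Baf180* KD to scr, 1 to 5, 0 to 2 and 0 to 3 for the Zn differences, and 1 to 2 for Cu averaged over cell lines. The likeness to *Slc39a10* was followed only without *Baf250a* KD Zn replicate 2, where 3 of the 5 genes stayed in the first 5.

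Depth limits *Slc39a8* and, in *Baf250a* KD with Zn, every member, since 1 of the 2 libraries held 495778 counts.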

Other observations

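Zn set 24 genes apart from NT and Cu in the same direction in all 4 cell lines, 4 above and 20 below. Beside the metallothioneins, *Dlgap5* and *Gm45774* lay above. Beside *Slc39a10*, 19 genes lay below, among them *Dmpk*, *Col12a1*, *Npnt*, which encodes the matrix protein nephronectin, the atypical cadherin genes *Fat1* and *Fat4*, and *Sulf1*, a sulfatase of heparan sulfate. These genes were named after their values were seen, and the separation was not tested.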
